A study of Sus scrofa with 9 samples.

Results

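The unfolded protein response (UPR) and endoplasmic reticulum (ER) stress genes are a group of 45 genes, chosen by symbol, and all 45 were present in both tables of 5-hydroxymethylcytosine (5hmC) levels, out of 18933 genes in the table of Obese- and Lean-MSCs and 18992 genes in the table of vitamin-C-treated and untreated Obese-MSCs. By role they comprised 10 genes listed under the PERK arm, 3 of the IRE1 arm and 10 of the ATF6 arm and its relatives. The others were 13 ER chaperones and folding enzymes and 9 genes of ER-associated degradation. The PERK list includes EIF2AK1, EIF2AK2 and EIF2AK4, kinases related to PERK (EIF2AK3) but not part of its arm. The libraries were made by hMeDIP-seq, in which an antibody against 5hmC captures DNA fragments for sequencing. The cells were mesenchymal stem/stromal cells (MSCs) from subcutaneous abdominal fat of female domestic pigs, expanded in culture. Lean-MSCs came from pigs on standard chow, Obese-MSCs from pigs on a high-fat and high-fructose diet for 16 weeks. The third group consisted of Obese-MSCs that had received 50 µg/mL vitamin-C in culture over 48 h. According to the paper, the growth medium itself already held a vitamin-C compound, so untreated cells were not free of it. The paper adds that the effect of vitamin-C may therefore be underestimated. Treated and untreated Obese-MSCs had been grown for a further passage after the third, and whether Lean-MSCs were handled likewise is not given in the sources used here. Each group had 3 libraries, and the labels do not tie a treated library to an untreated library of the same pig. The labels name the libraries only by number (Lean 7 to 9, untreated Obese 1 to 3, treated Obese 4 to 6), so a p-value measures the spread between these libraries.

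The ER folds secreted and membrane proteins, and unfolded proteins that build up in it are sensed by 3 transmembrane proteins. PERK, a kinase, phosphorylates the translation factor eIF2α, which slows protein synthesis while favoring translation of the transcription factor ATF4 and its target DDIT3 (CHOP). IRE1 is an endonuclease that splices the mRNA of XBP1 into the form that encodes an active transcription factor, and ATF6 is cut in the Golgi by the site-1 and site-2 proteases to free its own transcription factor domain. Their targets include ER chaperones and the degradation machinery that returns misfolded proteins to the cytosol. A 5hmC level says how much of this mark was captured over the exons of a gene, not how much of its RNA or protein the cell held.

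The values are normalized counts per gene, which the authors had scaled to similar totals within each table (494566 to 522269 per library in the first table and 547242 to 593846 in the second), and the 45 genes held 0.287% to 0.318% of a library's total. They were not corrected for gene length, so each gene is compared only with itself. In Lean 8 and treated 4, all values between 0.3 and 10.5 lay within 0.05 steps of a multiple of about 1 normalized count (0.991 and 1.003), and in other libraries only part of them did, so reads could not be counted and no counting interval was computed. Genes with high or low 5hmC levels were those that met the study's criteria, an unadjusted p-value of 0.05 or less with the mean of the first group at 1.4 times that of the second or more (high), or at 0.7 times or less (low). Computed here on the deposited values, these criteria called 391 genes high and 461 low in the first table. Both counts are below those the paper reported, so the calls are not exactly the paper's own. The untreated Obese libraries stand in both tables, scaled separately, and the 2 comparisons therefore share these libraries. They form the upper term of the first ratio and the lower term of the second. Their deviations therefore push the 2 ratios of a gene in opposite directions, and reversal by vitamin-C was not tested. Of the 15 cell type markers examined, none met the criteria in either comparison. All 3 MSC markers (NT5E, THY1 and ENG) carried 5hmC in every library, as did markers of other cell types such as PECAM1 and ADIPOQ, so that 5hmC over these genes does not identify the cells. CD14, a monocyte marker that MSCs lack, was listed at 0 in all 3 Lean libraries and at 0.65, 0.924 and 4.49 in the Obese libraries, so that its groups did not overlap. The summed level of the 3 MSC markers was 94.8 to 123 in Obese-MSCs against 80.1 to 88.4 in Lean-MSCs, and that of 3 endothelial genes was 162 to 195 in treated against 201 to 219 in untreated Obese-MSCs. Their part in the results below was not tested.

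Among the 45 genes, XBP1, ERN2 and WFS1 were high and DDIT3 was low in 5hmC when Obese-MSCs were set against Lean-MSCs. The 3 high genes made up 6.67% of the group, against 2.07% of all genes in the table, and the 1 low gene made up 2.22%, against 2.43% of all genes. Both IRE1-arm calls were high, the PERK-arm call was low, and the sensors EIF2AK3, ERN1 and ATF6 showed overlapping groups. Across all 45 genes, 25 had a ratio above 1 and 20 below, with a median log2 ratio of 0.05 (quartiles -0.18 and 0.22), close to 0.01 (quartiles -0.29 and 0.30) over all genes of the table. The groups did not overlap for 4 genes that were higher in Obese-MSCs (8.89% of the group, against 5.70% of all genes) and 2 that were lower (4.44%, against 6.06%).

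**Figure D1:**
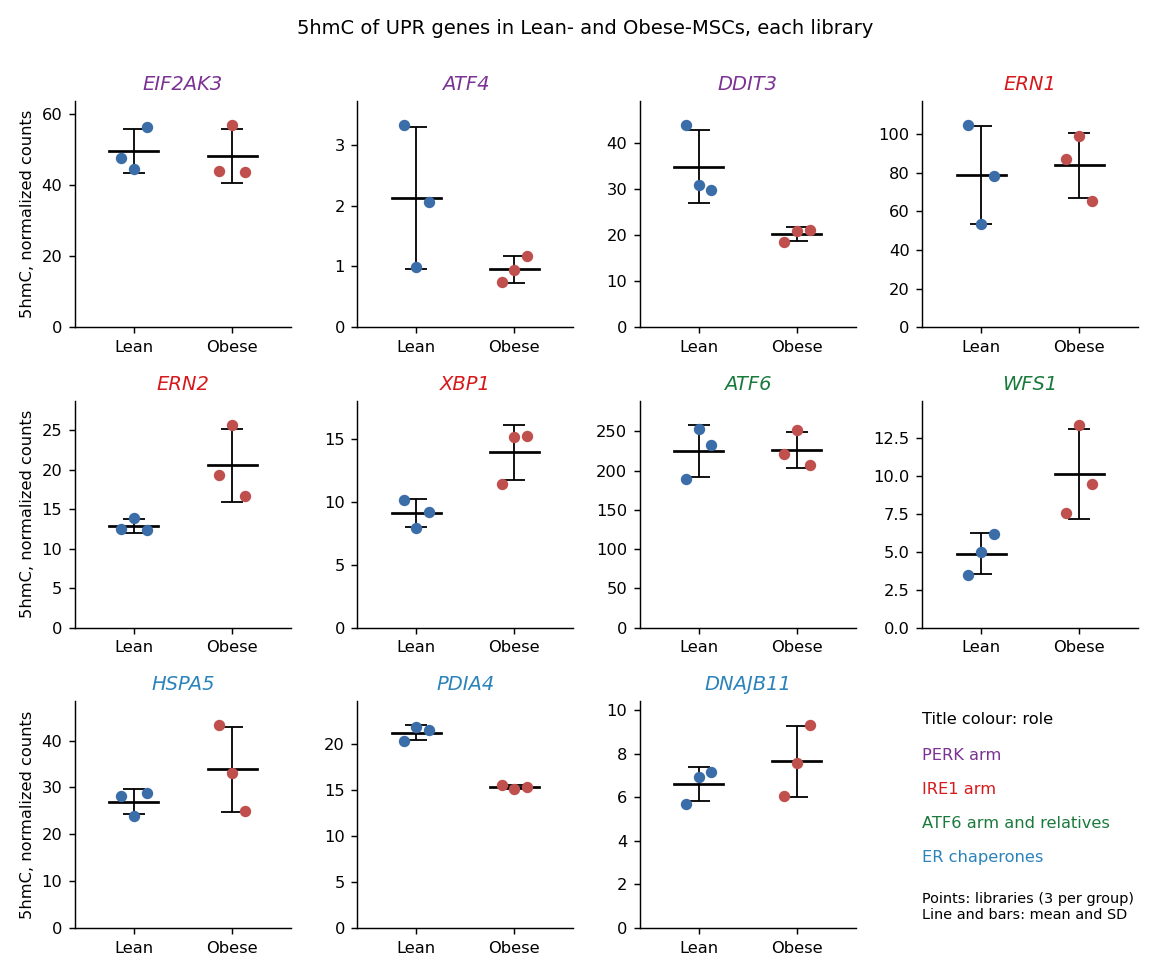
5hmC level in normalized counts (y axis, from 0) of 11 UPR genes in the 3 Lean and 3 Obese libraries. Points are libraries and black lines show the mean and SD. The Obese points lie above all Lean points for ERN2, XBP1 and WFS1, below them for DDIT3 and PDIA4, and overlap them for the other 6 genes.

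In the PERK arm the clearest difference was at DDIT3, which encodes CHOP, the transcription factor that links prolonged ER stress to cell death. The gene lies on chromosome 5 from 22785441 to 22789867 in the assembly Sscrofa11.1, and its span overlaps that of MARS by 69 bases. Its 5hmC level was 18.5, 20.9 and 21.1 in the Obese libraries, against 43.8, 30.8 and 29.8 in the Lean ones. Every Obese library lay below every Lean library, and Lean 7 stood well above the other Lean libraries. The group means were 20.2 ± 1.44 and 34.8 ± 7.83 (SD, n = 3 each), a ratio of 0.58 and a log2 ratio of -0.79. By exact permutation (two-sided) p was 0.1, as low as 3 libraries against 3 can reach. In limma on log2(value + 1) the difference was -0.74 with a 95% confidence interval of -1.31 to -0.16, and its adjusted p-value over all genes tested was 0.679.

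EIF2AK3 encodes PERK itself and lies on chromosome 3 from 57423894 to 57506247. Its level was 44.1, 57.0 and 43.7 in the Obese and 47.5, 44.7 and 56.5 in the Lean libraries, a log2 ratio of -0.04 with fully overlapping groups. ATF4, the transcription factor whose translation rises when eIF2α is phosphorylated, spans only 2789 bases on chromosome 5, from 8742964 to 8745752. It was listed at 0.739, 0.944 and 1.17 in the Obese and 3.33, 0.989 and 2.06 in the Lean libraries. At about 1 to 3 normalized counts per library its ratio of 0.448 rests on very little signal, the groups overlapped, and limma did not include it after the filter on low values.

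The other 7 genes listed under the PERK arm, with EIF2AK1, EIF2AK2 and EIF2AK4 included, had overlapping groups and did not meet the criteria. Over all 10 listed genes 3 were above and 7 below a ratio of 1, with a median log2 ratio of -0.10. Among the other 7 genes, PPP1R15B, a regulatory subunit that directs a phosphatase to eIF2α, had the lowest ratio at 0.689. Its levels were 40.8, 34.1 and 26.2 in the Obese and 54.1, 57.6 and 35.0 in the Lean libraries. EIF2AK2 (PKR), the eIF2α kinase that responds to double-stranded RNA, had a ratio of 0.703, and TRIB3, a pseudokinase induced downstream of ATF4 and CHOP, had the highest at 1.20. The summed level of the 10 genes, with EIF2AK1, EIF2AK2 and EIF2AK4 included, was 284 to 294 in Obese-MSCs and 292 to 350 in Lean-MSCs. These sums overlapped at their edge.

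In the IRE1 arm all 3 genes had a ratio above 1, as did 50.6% of all genes. XBP1, the target of the IRE1 endonuclease and a transcription factor for chaperone and degradation genes, lies on chromosome 14 from 46011239 to 46016526 and overlaps no protein-coding neighbor. Its level was 11.5, 15.2 and 15.2 in the Obese and 10.1, 7.94 and 9.24 in the Lean libraries. All Obese libraries lay above all Lean libraries, the nearest of them by a narrow margin. The means were 14.0 ± 2.17 and 9.11 ± 1.10 (SD, n = 3 each), a ratio of 1.53 and a log2 ratio of 0.62. The exact permutation p was 0.1, and limma gave 0.56 with an interval of -0.13 to 1.26 and an adjusted p-value of 0.793.

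ERN2 encodes IRE1β, the form of the sensor known from secretory epithelium of the gut and airways, and lies on chromosome 3 from 22510067 to 22537872, where it overlaps PLK1 by 59 bases. Its level was 19.3, 25.7 and 16.7 in the Obese libraries against 12.5, 13.9 and 12.3 in the Lean libraries. The Lean libraries were close together, with an SD of 0.871 against 4.62 in Obese-MSCs, and the groups did not overlap. The ratio was 1.59 and the log2 ratio 0.67, with an exact permutation p of 0.1, a limma interval of -0.02 to 1.25 and an adjusted p-value of 0.744. ERN1, which encodes the widely expressed IRE1α, lies on chromosome 12 from 14881913 to 14963290. Its level was 87.1, 98.7 and 65.1 in the Obese and 105, 53.6 and 78.1 in the Lean libraries. These groups overlapped over their whole range, and the log2 ratio was 0.09. With each library left out it ran from -0.127 to 0.346, so its sign did not hold.

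In the ATF6 arm 1 gene met the criteria. WFS1 encodes wolframin, an ER membrane protein that restrains ATF6 by promoting its degradation, and lies on chromosome 8 from 4362678 to 4405185. Its level was 7.55, 13.3 and 9.47 in the Obese and 3.47, 4.96 and 6.15 in the Lean libraries, with no overlap. The means were 10.1 ± 2.95 and 4.86 ± 1.34 (SD, n = 3 each), a ratio of 2.08 and a log2 ratio of 1.06, the highest of the 45 genes. The exact permutation p was 0.1, and the limma interval was 0.06 to 1.77 with an adjusted p-value of 0.704. ATF6 lies on chromosome 4 from 88591279 to 88806156 and carried 221, 251 and 207 normalized counts in the Obese and 189, 253 and 233 in the Lean libraries. Its log2 ratio was 0.01 with a limma interval of -0.35 to 0.38, the narrowest of the group.

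The remaining 8 genes of the ATF6 arm met no criterion, and over all 10 the median log2 ratio was 0.01. They include the membrane-bound transcription factors of the CREB3 family, which are released by the same proteases as ATF6. CREB3L2 was apart between groups at a smaller ratio of 1.26, with 63.5, 79.7 and 68.3 in the Obese and 62.1, 58.6 and 47.3 in the Lean libraries. CREB3L1 had the lowest ratio, 0.758, with overlapping groups. CREB3L4 had the largest variance relative to its mean, a measure that favors genes of high level, at 222, 144 and 205 in the Obese and 84.3, 171 and 200 in the Lean libraries, and its variance within groups was 15.5 times that mean, against a median of 1.70 over the 45 genes and 1.26 over all genes.

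Among the 13 chaperones and folding enzymes no gene met the criteria, although 9 had a ratio above 1 and the median log2 ratio was 0.21. HSPA5 encodes BiP, the ER chaperone that binds the 3 sensors when they are inactive, and lies on chromosome 1 from 265930044 to 265934959. Its level was 43.2, 33.2 and 25.1 in the Obese and 28.2, 23.8 and 28.7 in the Lean libraries. Obese 3 lay among the Lean libraries, and the ratio was 1.26 with a limma interval of -0.29 to 0.87. PDIA4, a protein disulfide isomerase of the ER, lies on chromosome 9 from 109260850 to 109280256 and moved the other way. Its level was 15.5, 15.2 and 15.3 in the Obese and 20.4, 21.8 and 21.6 in the Lean libraries, without overlap. Its p-value passed the study's threshold but its ratio of 0.721 stayed above 0.7. The Obese SD of 0.192 was far smaller than 3.92, the square root of the mean, which is the spread that counting alone would give if 1 normalized count stood for 1 read. In limma, which draws each gene's spread toward that of similar genes, the interval for PDIA4 was -1.04 to 0.15 and the adjusted p-value 0.822.

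DNAJB11, a co-chaperone of BiP on chromosome 13 from 124387921 to 124409967 whose span overlaps TBCCD1 by 467 bases, was at 6.07, 7.58 and 9.31 in the Obese and 5.71, 6.95 and 7.19 in the Lean libraries, with overlap and a log2 ratio of 0.21. Of the other 10 chaperones, DNAJB9, another BiP co-chaperone, had the highest ratio at 1.48 and PDIA3, the isomerase that acts with calnexin and calreticulin on glycoproteins, the lowest at 0.686, and both had overlapping groups. The summed level of the 13 genes was 238 to 245 in Obese-MSCs and 202 to 235 in Lean-MSCs. The nearest libraries, Obese 3 at 238 and Lean 9 at 235, lay close together. Their library totals also differed, at 504615 and 496372, and the sums were not corrected for this, so no separation is drawn from them. The sums overlapped for the IRE1 arm (97.1 to 140 against 75.4 to 127) and the ATF6 arm (623 to 657 against 471 to 663). They also overlapped for the degradation genes (253 to 279 against 262 to 291). In treated against untreated Obese-MSCs the chaperone sums overlapped too (259 to 313 against 262 to 273). No such sum was computed for other sets of genes.

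None of the 9 genes of ER-associated degradation met the criteria, and none had a ratio past 1.4 or 0.7. Their median log2 ratio was -0.02, and all had overlapping groups. EDEM1, which marks misfolded glycoproteins for removal by trimming their mannose, had the lowest ratio at 0.737, with 68.7, 69.3 and 45.2 in the Obese and 100, 80.4 and 67.8 in the Lean libraries. SYVN1 (HRD1), the ubiquitin ligase of this pathway, had the highest at 1.20, and SEL1L, its partner in the membrane, had 0.877.

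In limma, 43 of the 45 genes passed the filter on low values, which left out ATF4 and DERL3. At an unadjusted p of 0.05 or less WFS1 was higher and DDIT3 lower in Obese-MSCs. Each made up 2.33% of the genes tested in the group, against 3.20% of all 15146 tested genes that were higher and 3.61% that were lower. No gene of the whole table reached an adjusted p of 0.05 (0% of 15146). For 26 of the 43 genes the 95% interval lay within a 2-fold change in either direction, and for 41 it included 0. The count within a 2-fold change was not made over all tested genes, so it cannot be read as particular to this group. Leaving out each library in turn, the log2 ratio kept its sign in 20 of the 45 genes (44.4%), against 53.2% of all genes.

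**Figure D2:**
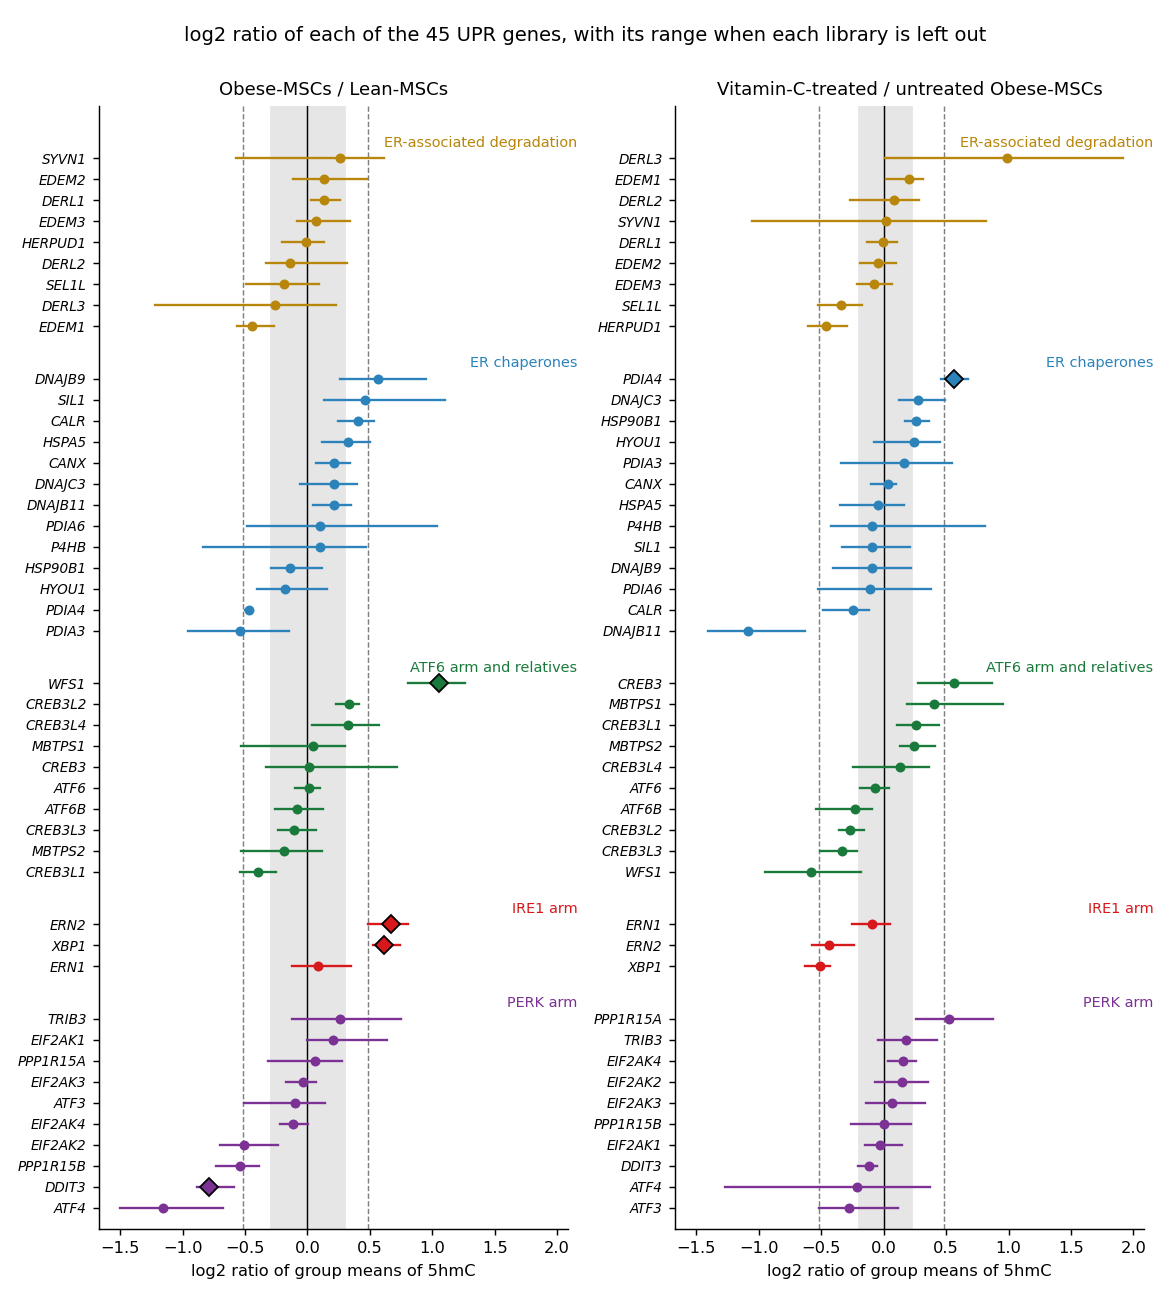
log2 ratio of group means of 5hmC (x axis) for each of the 45 genes (y axis, grouped by role), Obese- versus Lean-MSCs at left and treated versus untreated Obese-MSCs at right. Bars span the values obtained when each library is left out, diamonds mark genes that met the study's criteria, dashed lines mark ratios of 0.7 and 1.4 and the gray band spans the quartiles of all genes. The 4 diamonds at left are DDIT3, XBP1, ERN2 and WFS1, and the 1 diamond at right is PDIA4.

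The second comparison asked whether added vitamin-C, a cofactor of the TET enzymes that oxidize 5-methylcytosine to 5hmC, altered 5hmC levels of Obese-MSCs. Of the 45 genes, PDIA4 was high in 5hmC after treatment and no gene was low. This was 2.22% of the group against 1.11% of all genes for high, and 0% against 0.806% for low 5hmC levels. Over the group 21 genes had a ratio above 1 and 24 below, with a median log2 ratio of -0.03 (quartiles -0.22 and 0.18), against 0.004 (quartiles -0.20 and 0.23) over all genes. Groups were apart for PDIA4 and HSP90B1, which were higher after treatment (4.44% of the group, against 3.24% of all genes), and for XBP1 and DNAJB11, which were lower (4.44%, against 2.67%).

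**Figure D3:**
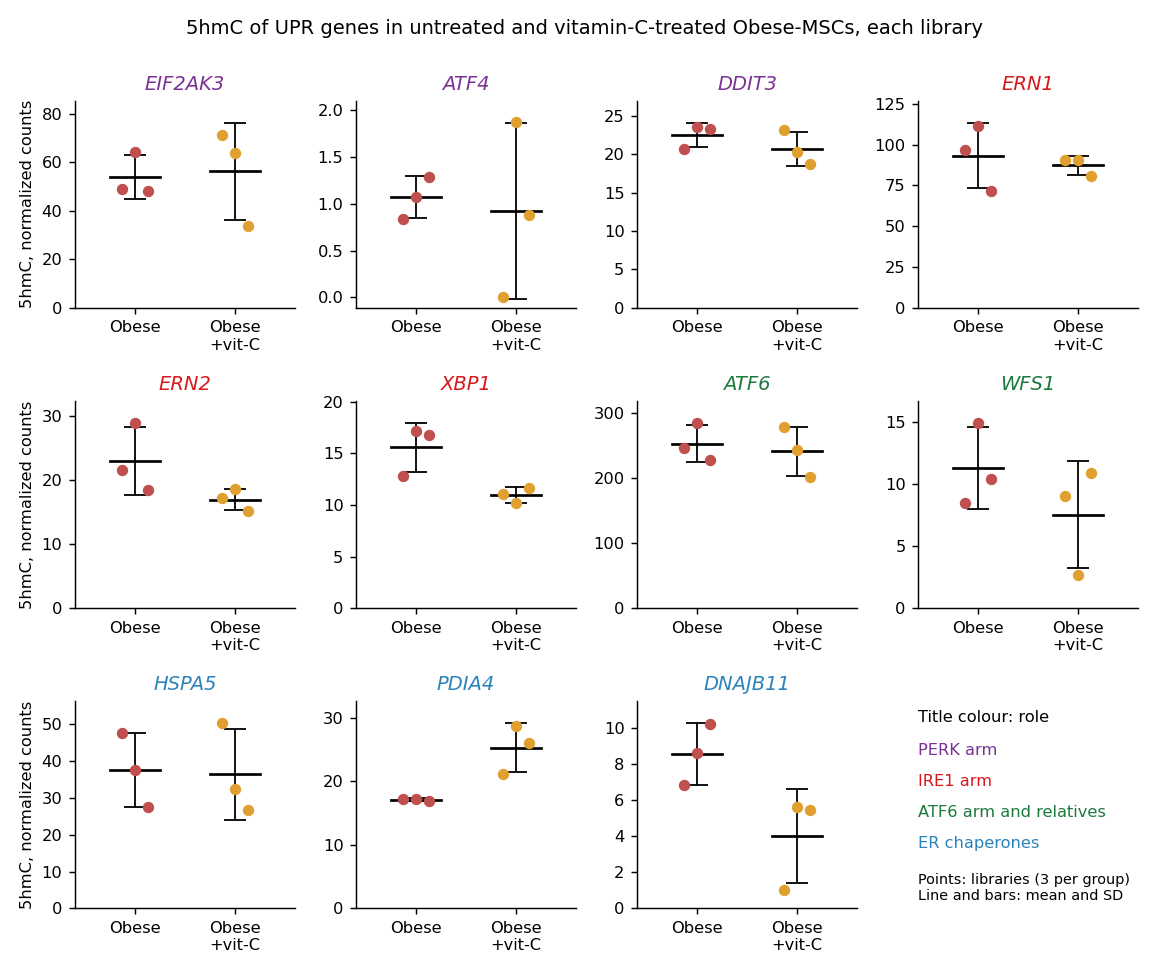
5hmC level in normalized counts (y axis, from 0 or just below it) of the same 11 genes in the 3 untreated and 3 vitamin-C-treated Obese libraries, from the second table. Points are libraries and black lines show the mean and SD. Treated points lie above the untreated points for PDIA4, below them for XBP1 and DNAJB11, and overlap them for the other 8 genes.

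PDIA4 was at 21.1, 28.7 and 26.0 in the treated and 17.3, 17.2 and 16.9 in the untreated libraries. The latter were again almost equal, with an SD of 0.209, and all treated libraries lay above them. The means were 25.3 ± 3.85 and 17.1 ± 0.209 (SD, n = 3 each), a ratio of 1.48 and a log2 ratio of 0.56. The exact permutation p was 0.1, and limma gave 0.53 with an interval of -0.09 to 1.15 and an adjusted p-value of 0.99998. The same 3 untreated libraries served as the Obese group in the first comparison, where PDIA4 had a log2 ratio of -0.47. DNAJB11 was at 1.01, 5.60 and 5.42 in the treated and 6.83, 8.58 and 10.2 in the untreated libraries. Treated 4 was far below the others, the ratio was 0.47 and the log2 ratio -1.09, but its p-value did not pass the study's threshold. Its limma interval was -2.21 to 0.01.

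Other chaperones differed less. HSP90B1 (GRP94), the ER form of HSP90, was at 37.2, 38.0 and 35.8 in the treated and 35.5, 30.1 and 27.4 in the untreated libraries, a ratio of 1.19 with treated 6 barely above untreated 1, and its span overlaps a neighboring gene, C5H12orf73, by 8430 bases. HSPA5 was at 50.3, 32.3 and 26.7 in the treated and 47.7, 37.5 and 27.7 in the untreated libraries, with a log2 ratio of -0.05. DNAJC3, a BiP co-chaperone also known as an inhibitor of eIF2α kinases, had a ratio of 1.21, and CALR, the glycoprotein chaperone calreticulin, had 0.843, both with overlap. The median log2 ratio of the 13 genes was -0.05, with 6 above and 7 below a ratio of 1.

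In the IRE1 arm all 3 ratios were below 1 after treatment, while 50.6% of all genes had a ratio above 1. XBP1 was at 11.1, 10.2 and 11.7 in the treated and 12.9, 17.1 and 16.8 in the untreated libraries. The groups did not overlap, but the ratio of 0.703 lay just outside the limit of 0.7, so that XBP1 did not count as low on the values as deposited. With size factors or quantile normalization the ratio passed the limit and XBP1 met the criteria (log2 ratio -0.508 as deposited and -0.515 with size factors). The exact permutation p was 0.1, and the limma interval was -1.15 to 0.23. ERN2 was at 17.1, 18.5 and 15.2 in the treated and 21.5, 28.9 and 18.4 in the untreated libraries, where treated 5 just exceeded untreated 3, and its ratio was 0.738. ERN1 was at 90.5, 90.7 and 80.5 in the treated and 96.8, 111 and 71.7 in the untreated libraries, with overlap and a log2 ratio of -0.10. In the first comparison, with the same untreated libraries as the Obese group, the log2 ratios were 0.62 for XBP1, 0.67 for ERN2 and 0.09 for ERN1. Opposite signs can arise from the shared libraries alone.

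Of the 10 genes listed under the PERK arm, none met the criteria and all groups overlapped. Their median log2 ratio was 0.04, with 6 above a ratio of 1. DDIT3, which had been low in Obese-MSCs, was at 23.1, 20.4 and 18.7 in the treated and 20.7, 23.6 and 23.3 in the untreated libraries. Its ratio was 0.922 and its limma interval -0.73 to 0.50. EIF2AK3 was at 71.4, 63.9 and 33.7 in the treated and 49.2, 64.3 and 48.1 in the untreated libraries, with the highest and the lowest value both in the treated group. ATF4 stayed near 1 normalized count, at 0.00133, 1.88 and 0.884 in the treated and 0.84, 1.08 and 1.29 in the untreated libraries, which is too little signal for a comparison. PPP1R15A (GADD34), the stress-induced partner of the eIF2α phosphatase, had the highest ratio at 1.43, with 30.2, 11.9 and 26.0 in the treated and 22.7, 14.0 and 10.8 in the untreated libraries, and ATF3, a transcription factor induced by ATF4, had the lowest at 0.826.

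In the ATF6 arm no gene met the criteria and all groups overlapped. ATF6 was at 278, 243 and 201 in the treated and 245, 284 and 228 in the untreated libraries, a log2 ratio of -0.07 with an interval of -0.50 to 0.34. WFS1 was at 9.05, 2.66 and 10.9 in the treated and 8.52, 14.9 and 10.5 in the untreated libraries. Treated 5 alone was far below the rest, and the groups overlapped at a ratio of 0.666. CREB3, the founding member of its family, had the highest ratio at 1.47, and the variance of CREB3L4 within groups was 25.3 times its mean, with 204, 152 and 339 normalized counts in the treated libraries. No gene of ER-associated degradation met the criteria either, and their median log2 ratio was -0.01. HERPUD1, an ER membrane protein of the degradation complex, had the lowest ratio at 0.727. DERL3, a member of the derlin channel family, had the highest at 1.98 on a mean of only 4.85 normalized counts, and its treated libraries ran from 1.01 to 12.8.

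In limma, 44 of the 45 genes were tested, all but ATF4. None had an unadjusted p of 0.05 or less, against 0.56% of the 15192 genes tested that were higher and 0.415% that were lower, and no gene of the table reached an adjusted p of 0.05 (0% of 15192). By the study's criteria, also unadjusted, 1 of the 45 genes was called. The interval lay within a 2-fold change in either direction for 28 of the 44 genes and included 0 for all 44. Here too the count within a 2-fold change was not made over all tested genes. The sign of the log2 ratio held with each library left out in 22 of the 45 genes (48.9%), against 40.6% of all genes.

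**Figure D4:**
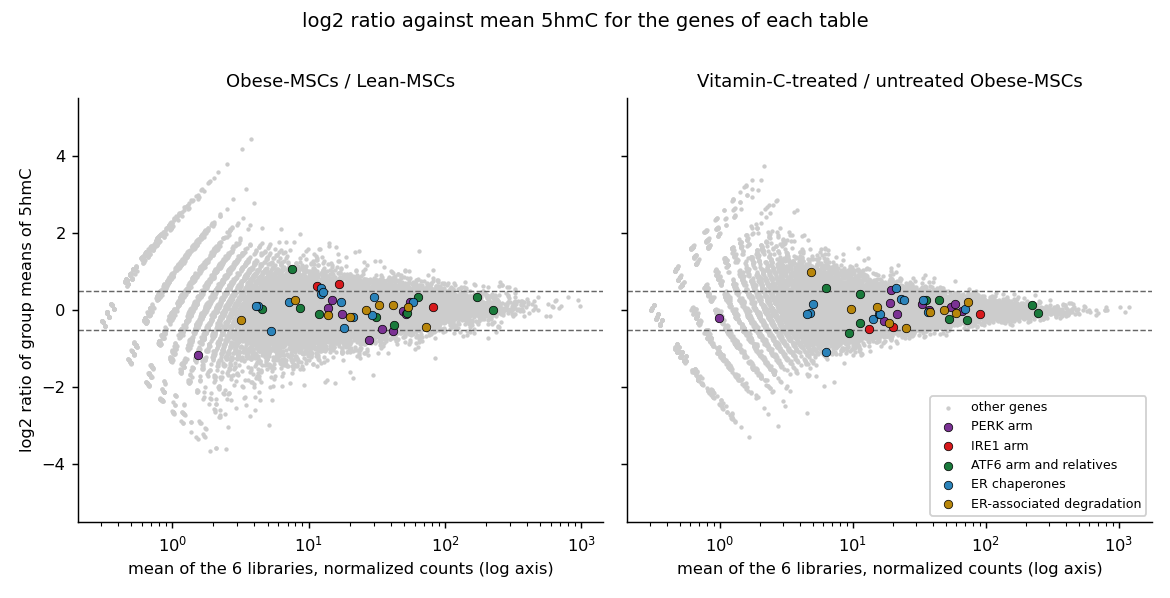
log2 ratio of group means (y axis) against the mean 5hmC level of the 6 libraries of each table (x axis, normalized counts, log axis) for all genes (gray) and the 45 genes (colored by role), with dashed lines at ratios of 0.7 and 1.4. Ratios of all genes spread widely at low levels, where ATF4 lies, and narrow toward high levels, where ATF6 lies near 0.

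The 45 genes were set beside 59 further genes of the same pathways. In Obese- versus Lean-MSCs, CRELD2, UBXN4 and NPLOC4 had high 5hmC levels (5.08% of the 59, against 2.07% of all genes), and ERP44, EIF2B5 and RTCB had low levels (5.08%, against 2.43%). CRELD2 encodes an ER-resident stress-induced protein, and UBXN4 and NPLOC4 act with the ATPase VCP in extracting proteins from the ER membrane. VCP itself went the other way, with a ratio of 0.571, as did UFD1 of the same list at 0.674, both with overlapping groups. Of the 17 further degradation genes, 6 were above and 11 below a ratio of 1, with a median log2 ratio of -0.16. CRELD2 was at 4.57, 5.69 and 5.86 in the Obese and 2.32, 3.97 and 3.08 in the Lean libraries, and UBXN4 at 7.47, 11.4 and 15.1 against 5.62, 3.97 and 5.13, both without overlap. NPLOC4 was at 19.4, 19.9 and 20.0 in the Obese and 11.4, 16.9 and 12.3 in the Lean libraries, a ratio of 1.46. ERP44, a thioredoxin-like protein that retains folding clients in the early secretory pathway, had the lowest ratio, 0.274, at 0.678, 1.90 and 2.31 against 6.75, 5.96 and 5.15, all on few normalized counts. RTCB, the ligase that rejoins the XBP1 mRNA after IRE1 has cut it, was at 17.7, 5.59 and 9.52 in the Obese and 29.2, 19.8 and 22.6 in the Lean libraries, a ratio of 0.457. RTCB was lower without overlap, as were 6.06% of all genes, and XBP1 was higher without overlap, as were 5.70%. Whether the 2 are linked was not tested.

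After vitamin-C, 3 of the 59 genes had high 5hmC levels (5.08%, against 1.11% of all genes). All 3 belonged to the 13 genes listed for the integrated stress response, the pathway downstream of eIF2α phosphorylation. None belonged to the other lists of folding, degradation and signaling genes, a split seen only afterward. Over these 13 genes the median log2 ratio was 0.03, against 0.004 over all genes, with 9 above and 4 below a ratio of 1. ATF5, a transcription factor translated under the same conditions as ATF4, was at 8.05, 11.1 and 9.84 in the treated and 4.30, 6.39 and 2.79 in the untreated libraries, a ratio of 2.16. DDIT4 (REDD1), a stress-induced inhibitor of mTORC1, was at 16.1, 14.8 and 13.4 in the treated and 9.62, 7.51 and 4.18 in the untreated libraries, a ratio of 2.08. EIF2B5, a subunit of the exchange factor that eIF2α phosphorylation blocks, had a ratio of 1.55 after treatment and 0.63 in Obese- versus Lean-MSCs, 2 comparisons that share the untreated libraries. In the treated libraries it was at 14.1, 11.1 and 13.4 against 8.64, 9.63 and 6.65 in the untreated. ATF5 and DDIT4 had ratios of 0.600 and 0.651 in Obese- versus Lean-MSCs, with overlapping groups. The limit of shared untreated libraries therefore applies to all 3 genes. ERO1B, an oxidase that supplies disulfide bonds in the ER, was the 1 gene of the 59 with low levels (1.69%, against 0.806%), at 3.02, 3.73 and 1.74 in the treated and 5.15, 6.42 and 5.24 in the untreated libraries. Neither in these genes nor in the 45 did any adjusted p-value reach 0.05 in limma.

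Leaving out single libraries ended most of the calls. Of the 4 genes called in Obese- versus Lean-MSCs, DDIT3 still met the criteria after Lean 7 or Lean 9 was left out, XBP1 after Obese 1 or Lean 7, WFS1 after Obese 1 and ERN2 after Obese 3, and each lost the call without any of the other libraries. Without Obese 2 or Lean 8, none of the 4 met them. In treated versus untreated Obese-MSCs, PDIA4 still met the criteria after treated 4 was left out and lost the call without any of the other 5 libraries. In each of these cases 2 libraries stood against 3, and the direction of the ratio was kept.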

How the data were processed

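The authors aligned paired hMeDIP-seq reads with Bowtie2 2.3.3.1 to susScr 11.1, removed duplicates with Picard 1.67, counted reads over exons with HTSeq 0.9.1 and normalized with edgeR 3.28.1, as the methods and the submitters' processing notes give it. The deposited values are a 5hmC signal per gene, in normalized and fractional counts. The 2 tables were normalized separately and were tested separately. In the second table, 645 values under 1e-06 were set to 0, and 25 names turned into dates matched no gene.

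The 45 genes and the lists were chosen with earlier results of these data known. The study's criteria used a two-sided test with equal variances. limma 3.58.1 (R 4.3.3) was fitted with a trend to log2(value + 1) over the upper 80% of genes by mean, with Benjamini-Hochberg adjustment over all genes tested. Pseudocounts understate changes of low genes. For single genes an exact permutation of the libraries (20 arrangements, two-sided) was used. The procedure was also run on simulated data, with 200 genes above the median level changed 3-fold. That run does not bear on the smaller ratios reported here or on genes of low level. Python 3.11.15 was used otherwise.

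Library values are given for DDIT3, XBP1, ATF4, ATF6, EIF2AK3, ERN1, HSPA5 and for those of the 45 that met the criteria, had groups apart with a ratio past 1.4 or 0.7, or a limma p of 0.05 or less. Other genes appear by range and count, with up to 3 per role named for high or low ratios. Library values of CREB3L2, CREB3L4, EDEM1, HSP90B1, PPP1R15A and PPP1R15B were added after they were seen. Of 63 further pathway genes, 59 were present, and those that met the criteria are named. VCP and UFD1 were added after their values were seen. Alternatives were other thresholds, pseudocounts, filters and scalings, and each library left out. Positions are RefSeq spans on Sscrofa11.1, and exon annotation was not used here. Depth in reads is unknown, so errors are spreads between 3 libraries.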

Additional observations from a re-analysis of the deposited data

How the results depend on the processing

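In Obese- versus Lean-MSCs the count of genes meeting the criteria fell from 4 to 0 at a p threshold of 0.01 and ran from 0 to 3 when single libraries were left out. Without Lean 7, Lean 8 and Lean 9, MBTPS2, ATF4 and PPP1R15B respectively met them, which was seen afterward. The count at an unadjusted limma p of 0.05 or less was 2, or 1 in the upper 50% of genes by mean, and ran from 1 (without Lean 7) to 6 (without Lean 9) with each library left out. The smallest adjusted p-value of the 45 genes lay between 0.619 and 0.961 over the alternatives. The median log2 ratio of 0.0463 ran from -0.0177 (without Obese 2) to 0.0748. In treated versus untreated Obese-MSCs the count meeting the criteria was 1, with 0 at a p threshold of 0.01, 2 with size factors, 2 with quantile normalization, where XBP1 was added, and 0 to 3 with each library left out. The 3 genes without untreated 1 were XBP1, MBTPS1 and HERPUD1. The limma count of 0 became 1 with a pseudocount of 5, 1 without the filter on low values, and 0 to 2 with each library left out, the highest without treated 5. The median of -0.0311 ran from -0.0893 to 0.0648 (without treated 6). No called gene changed direction. No paired analysis was possible because the groups share no replicate numbers in the labels. Depth in reads is unknown, and 3 libraries a group allow no exact p below 0.1.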
